A study of Mus musculus with 2 samples.

Results

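The small leucine-rich proteoglycans are a family of secreted matrix proteins, and 10 of their genes, Dcn, Bgn, Aspn, Lum, Fmod, Kera, Omd, Prelp, Ogn and Epyc, were followed in the tooth and the skin of newborn mice. They were chosen by name as all non-control array probes whose gene name was one of these symbols, and they make up 10 of the 24323 named genes on the array, with 1 probe each. Total RNA from wild-type tooth and from wild-type skin, both labelled as postnatal day 0, was converted to Cy3-labelled cRNA and hybridised to 1 array per tissue. The methods gave C57BL/6J as the wild-type strain, and the number of animals behind each array was not given in the labels. The methods also named tooth germs, a whole organ of epithelium and mesenchyme, and a stage 1 day later than the labels, which were followed here. With 1 array per tissue no difference has a replicate check and no test was run. In bulk RNA of this kind, fewer cells of a type and less RNA per cell cannot be told apart.

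Proteins of this family have a curved core of leucine-rich repeats that binds collagen, and many carry sugar chains. Those of class I (decorin, biglycan and asporin) include the bearers of chondroitin or dermatan sulfate chains, whereas class II (lumican, fibromodulin, keratocan, osteomodulin and prolargin) includes keratan sulfate proteoglycans and class III holds osteoglycin and epiphycan. They limit or guide the growth of collagen fibrils and bind growth factors such as TGF-β. In teeth, members are known from the predentin, dentin and pulp, and in skin decorin and lumican coat the collagen fibrils of the dermis.

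The labels were borne out by the defining markers of each tissue. The enamel and dentin genes Amelx, Ambn, Enam and Dspp all passed the background call in tooth and failed it in skin, and the epidermal genes Krt1, Krt10, Flg and Lor were higher in skin by 8.39 to 12.89 (log2). No spot was saturated, and the call of well above background, made by the scanner software, was met by 0 of 308 negative-control spots in tooth and 1 of 308 in skin. The dimmest probe with that call had an intensity of 18.7 in tooth and 20.8 in skin.

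Of the 10 members, 8 passed the background call in 1 or both tissues, beside 71.6% of all named genes. Of these 8, 6 were measured on both arrays, Omd only in tooth and Kera only in skin, whereas Prelp and Epyc were measured in neither tissue. Among all 17409 genes detected on at least 1 array, 8.03% were measured only in tooth and 4.25% only in skin. Omd, Fmod, Lum and Ogn were at least 2-fold higher in tooth, 4 of the 8, beside 15.5% of all detected genes. Kera was at least 2-fold higher in skin, 1 of the 8, beside 14.2% of all detected genes, but its bound fell under 2-fold with median, quantile and spike-in scaling and normexp background correction. Dcn, Bgn and Aspn lay within 2-fold under 75th percentile scaling. The median difference of the 8 members, skin minus tooth, was -1.93 (log2), whereas the median of all detected genes was -0.04 with quartiles of -0.58 and 0.47. The 10 genes were picked by name and are few, so these counts describe them and were not tested.

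**Figure D1:**
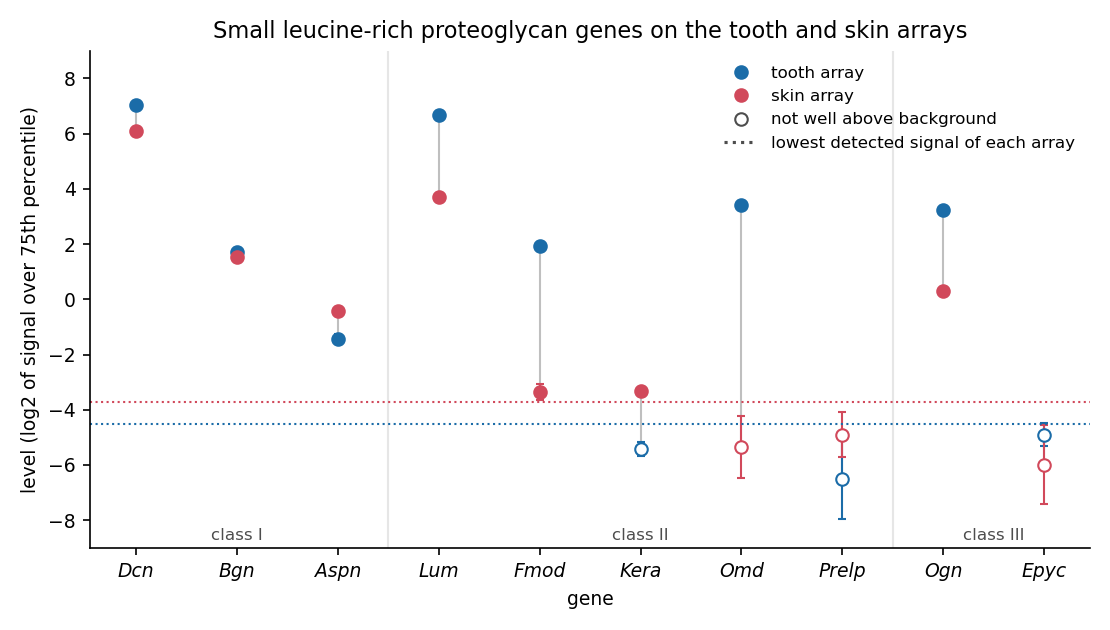
Level of each of the 10 genes in tooth (blue) and skin (red), as log2 of the signal over the 75th percentile of that array. Open circles were not well above background, bars are 1 standard error from the scanner's error model and dotted lines mark the lowest detected signal of each array. The widest gaps are those of Omd and Fmod, and only the distance between the circles of 1 gene can be read, since levels of different probes are not comparable.

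Of the 10 members, 9 lie in 3 chromosomal neighbourhoods, with Bgn alone on chromosome X. By the probe positions in mm9, Dcn, Lum, Kera and Epyc stood on chromosome 10 at 0, 55.0, 96.0 and 163.7 kb from the first. Aspn, Omd and Ogn stood on chromosome 13, behind the related gene Ecm2, at 34.4, 59.8 and 91.5 kb from the Ecm2 probe. Prelp and Fmod stood on chromosome 1, 137.1 kb apart, with the related gene Optc 13.1 kb from Prelp. On chromosome 10 Lum passed 2-fold toward tooth, Dcn lay within 2-fold (-0.93, log2, skin minus tooth) and Kera was higher in skin. On chromosome 13 the adjacent Omd and Ogn, 31.7 kb apart, both passed 2-fold toward tooth, whereas Aspn, 25.4 kb from Omd, lay within 2-fold (0.99).

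**Figure D2:**
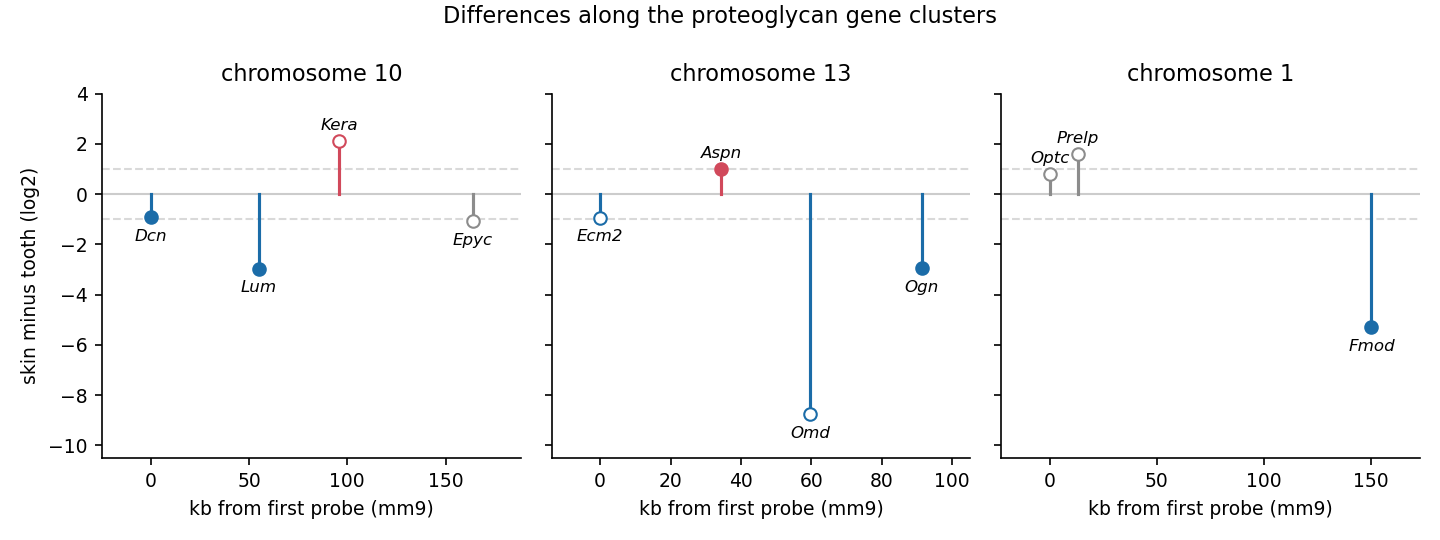
Difference between skin and tooth (log2, skin minus tooth) against the distance in kb of each probe from the first probe of its neighbourhood on chromosomes 10, 13 and 1 (mm9). Filled circles were measured on both arrays, open coloured circles on 1 array, so that their measured difference includes a signal near background, and grey circles on neither; the dashed lines mark 2-fold. Aspn points up between Ecm2 and Omd, which point down.

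Because Omd and Ogn passed 2-fold toward tooth and their neighbour Aspn did not, the 250 bases before the start of Aspn, Omd and Ogn are shown, 5′ to 3′ on the plus strand, from RefSeq on GRCm38.p6. They span chr13:49544193-49544442 (Aspn), chr13:49582212-49582461 (Omd) and chr13:49607765-49608014 (Ogn), and GRCm38.p6 positions are not those of the mm9 probes. Capitals mark matches on either strand to the TATA-box letters TATAAA, or TTTATA on the opposite strand, and to the RUNX letters TGTGGT, or ACCACA on the opposite strand.
Aspn promoter: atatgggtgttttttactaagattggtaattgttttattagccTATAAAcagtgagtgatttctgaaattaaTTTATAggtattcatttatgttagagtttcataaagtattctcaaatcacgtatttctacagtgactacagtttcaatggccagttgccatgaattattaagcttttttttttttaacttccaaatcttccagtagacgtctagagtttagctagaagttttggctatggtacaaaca
Omd promoter: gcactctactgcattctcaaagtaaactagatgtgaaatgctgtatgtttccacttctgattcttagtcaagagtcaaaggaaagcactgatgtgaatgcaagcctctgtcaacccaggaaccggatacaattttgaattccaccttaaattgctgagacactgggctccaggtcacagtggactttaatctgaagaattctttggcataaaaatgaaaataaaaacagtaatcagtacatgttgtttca
Ogn promoter: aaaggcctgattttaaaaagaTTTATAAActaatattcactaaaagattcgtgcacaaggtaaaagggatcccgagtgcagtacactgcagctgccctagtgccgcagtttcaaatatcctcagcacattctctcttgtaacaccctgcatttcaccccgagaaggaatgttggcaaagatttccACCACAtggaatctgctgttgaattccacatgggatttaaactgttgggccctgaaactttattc

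Aspn had 2 TATAAA matches, 207 to 202 bases before the start on the plus strand and 178 to 173 on the minus strand. Ogn had 2 that overlap each other, 229 to 224 bases before the start on the minus strand and 227 to 222 on the plus strand, and 1 TGTGGT match on the minus strand, 65 to 60 bases before the start. Omd had no match to either, which says only that these letters are not in this window. Of 32817 promoter windows of the same length, 12.4% held TATAAA and 14.04% held TGTGGT. The E-box letters CANNTG, which read alike on both strands and stood in 66.2% of the windows, matched once in Aspn, 3 times in Ogn and not in Omd, and 1 Ogn match (63 to 58) overlaps the TGTGGT match. The GC content of these windows was 30.0% for Aspn, 38.4% for Omd and 42.0% for Ogn, and 1.47%, 9.06% and 15.9% of all windows had less. The median of all windows was 52.4%. Promoters were found for 8 of the 10 members but not for Dcn and Lum, and only those of Aspn, Omd and Ogn are described. A match is a description of the letters and not a binding site.

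In class I, none of the 3 members differed by 2-fold between tooth and skin under 75th percentile scaling. Dcn (NM_007833, probe at chr10:96980233-96980292 of mm9, plus strand), which encodes decorin, a regulator of collagen fibril width, had an intensity of 56083 in tooth and 19060 in skin. Relative to the 75th percentile of each array, its levels were 7.03 and 6.11 (log2). The difference, skin minus tooth, was -0.93 ± 0.20 (log2, SE from the scanner's error model for 1 spot per array), which is 1.90-fold higher in tooth. The 95% interval of that model ran from -1.33 to -0.53. Among the 15271 genes measured on both arrays, 13.4% differed more toward tooth than Dcn did. This rank and those that follow leave out the 1398 genes measured only in tooth and the 740 measured only in skin. Both intensities stood far above the lowest detected signal of their array. Dcn passed 2-fold toward tooth under median (-1.17), quantile (-1.16) and spike-in scaling (-1.55) and with normexp background correction (-1.02). In the deposited value table its difference was -0.91.

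Bgn (NM_007542, chrX:70738554-70738613, plus strand) encodes biglycan, a proteoglycan of bone, dentin and many connective tissues. Its intensity was 1387 in tooth and 791 in skin, and its levels were 1.70 and 1.52 (log2). The difference of -0.18 ± 0.20 was smaller than its own measurement error, with an interval from -0.58 to 0.22, or 1.13-fold higher in tooth. As many as 40.5% of the genes measured on both arrays differed more toward tooth. The raw intensities, 1.75-fold apart, were further apart than the scaled levels, and the 75th percentile of all signals was 427.9 in tooth and 276.1 in skin.

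Aspn (NM_025711, chr13:49662479-49662538, plus strand) encodes asporin, a member without sugar chains that is known from the periodontal ligament. It was the 1 class I gene with a higher value in skin, with an intensity of 160 in tooth and 205 in skin and levels of -1.42 and -0.43 (log2). The difference of 0.99 ± 0.21 (interval 0.58 to 1.41) was 1.99-fold and lay just under the 2-fold line. Of all genes measured on both arrays, 11.6% differed more toward skin. It passed 2-fold in the deposited value table (1.01), but fell to 0.37 when the arrays were scaled on their spike-in transcripts, which moves every difference by -0.62 (log2).

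In class II, 3 of the 5 members were at least 2-fold higher in tooth, 1 was higher in skin and 1 was not measured. Lum (NM_008524, chr10:97035210-97035269, plus strand), encoding lumican, a keratan sulfate proteoglycan known from the cornea and the dermis, had an intensity of 43530 in tooth and 3592 in skin. Its levels were 6.67 and 3.70 (log2). The difference was -2.97 ± 0.20 (interval -3.37 to -2.57), or 7.82-fold higher in tooth. Of the 15271 genes measured on both arrays, 229 differed more toward tooth, with genes measured only in tooth left out. Lum was bright on both arrays, so that neither value was near background.

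Fmod (NM_021355, chr1:135943998-135944057, plus strand) encodes fibromodulin, which binds type I collagen and is known from tendon, cartilage and predentin. Its intensity was 1636 in tooth and 27.0 in skin, the latter little above the lowest detected signal and no brighter than the brightest negative-control spot of the skin array (27.0). The levels were 1.93 and -3.36 (log2), and the difference was -5.29 ± 0.33 (interval -5.93 to -4.65), or 39.2-fold higher in tooth. By the measured value 28 of the 15271 genes measured on both arrays differed more toward tooth, with genes measured only in tooth left out. Its size depended on how the dim skin spot was treated, since normexp background correction gave -3.47.

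Omd (NM_012050, chr13:49687847-49687906, plus strand) encodes osteomodulin, also called osteoadherin, a keratan sulfate proteoglycan of bone and dentin. Its intensity was 4617 in tooth and 6.84 in skin, where it was not well above background. Its level in tooth was 3.43 (log2), and against the lowest detected signal of the skin array tooth was higher at least 143-fold. The measured difference was -8.77 ± 1.13 (log2), a value that rests on a skin signal within the range of the negative controls. Both values depended on the background correction, since normexp gave a difference of -5.35 and a bound of 35.2-fold, whereas the bound lay between 141-fold and 221-fold under the other scalings and in the deposited value table.

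Kera (NM_008438, chr10:97076230-97076289, plus strand), which encodes keratocan, known best from the corneal stroma, was the only member printed in 10 spots per array. In tooth the spots ran from an intensity of 5.17 to 16.8 with a median of 9.38, and 0 of 10 were well above background. In skin they ran from 16.4 to 37.6 with a median of 30.2, and 7 of 10 were. Unscaled, 1 tooth spot lay above the lowest skin spot, and the other 9 lay below all skin spots. On the scaled log2 axis the tooth spots (-6.37 to -4.67) and the skin spots (-4.07 to -2.88) did not overlap, with SDs among spots of 0.57 and 0.39. Under 75th percentile scaling Kera was at least 2.30-fold higher in skin, and its measured means of -5.41 and -3.32 differed by 2.09 ± 0.27 (log2). Spots of 1 probe share 1 RNA sample and are no biological replicates. The difference was 0.84 after normexp background correction and 1.47 after spike-in scaling, and the bound was 1.72-fold and 1.49-fold, both under 2-fold. The highest of the 308 negative-control spots on the skin array read 27.0, above the lowest Kera spots there.

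**Figure D3:**
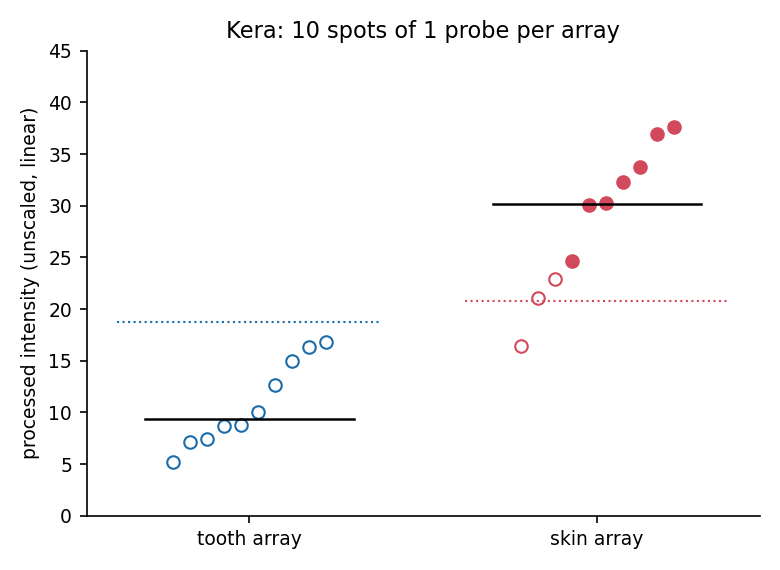
Processed intensity (linear, unscaled) of the 10 Kera spots in tooth (blue) and skin (red), in order of intensity. Filled circles were called well above background, black lines are the medians of 9.38 and 30.2, and dotted lines are the lowest detected signals of 18.7 and 20.8. No tooth spot and 7 skin spots were well above background.

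Prelp (probe to the cDNA AK037150, chr1:135806855-135806914, minus strand) encodes prolargin, which anchors basement membranes to connective tissue. It had an intensity of 4.72 in tooth, a surrogate set by the software, and 9.18 in skin, and neither value was well above background. It has no fold.

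In class III, Ogn was higher in tooth and Epyc was measured in neither tissue. Ogn (NM_008760, chr13:49719549-49719608, plus strand), encoding osteoglycin or mimecan, a protein first isolated from bone, had an intensity of 4050 in tooth and 340 in skin. Its levels were 3.24 and 0.30 (log2). The difference of -2.94 ± 0.21 (interval -3.34 to -2.54) was 7.69-fold higher in tooth. Of the 15271 genes measured on both arrays, 234 differed more toward tooth, with genes measured only in tooth left out. Lum and Ogn, on different chromosomes, differed between the tissues by nearly the same amount, and the gap between their differences was smaller than either error. Epyc (NM_007884, chr10:97143965-97144024, plus strand), encoding epiphycan, a dermatan sulfate proteoglycan of growth cartilage, had an intensity of 14.4 in tooth and a surrogate of 4.36 in skin, and neither was well above background.

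**Figure D4:**
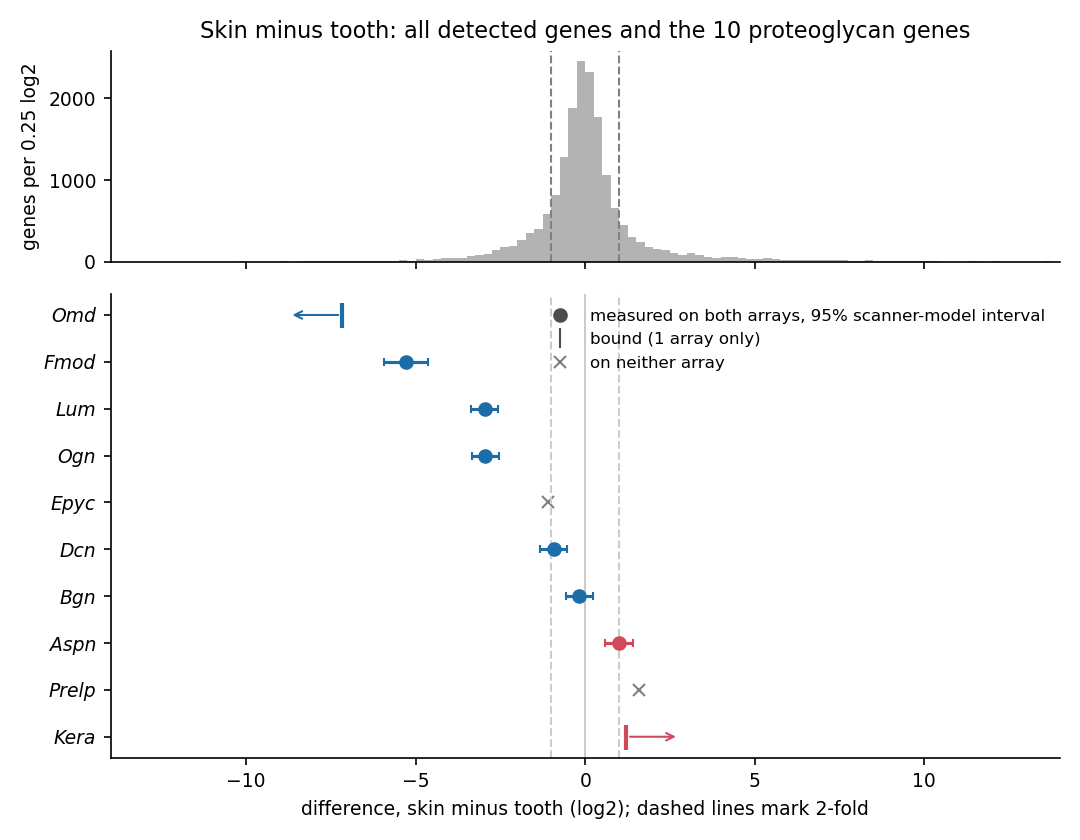
Upper panel, number of detected genes per 0.25 log2 of the difference between skin and tooth, with a median of -0.04. Lower panel, the same difference for each of the 10 genes, with the 95% interval of the scanner's error model (circles), as a bound with an arrow for Omd and Kera, or as a cross for Prelp and Epyc, measured on neither array; dashed lines mark 2-fold. Omd, Fmod, Lum and Ogn lie to the left of the 2-fold line and Kera to the right of it.

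How far a member's difference stood from 0 depended on the scale, although none of the 8 measured members turned its sign under any of the alternatives. Scaling on spike-ins put 32.4% of all detected genes at least 2-fold higher in tooth and 9.04% in skin, and scaling on the array medians 20.1% and 11.6%. These scalings move every gene by 1 constant, so the members' median relative to that of all genes, -1.89 (log2), cannot change under them. Over the alternatives, the difference ranged from -3.59 to -2.95 for Lum, from -3.57 to -2.82 for Ogn, from -5.91 to -3.47 for Fmod and from -9.39 to -5.35 for Omd. Dcn ranged from -1.55 to -0.91 and passed the 2-fold line under median, quantile and spike-in scaling and normexp correction, and Bgn ranged from -0.80 to -0.14.

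**Figure D5:**
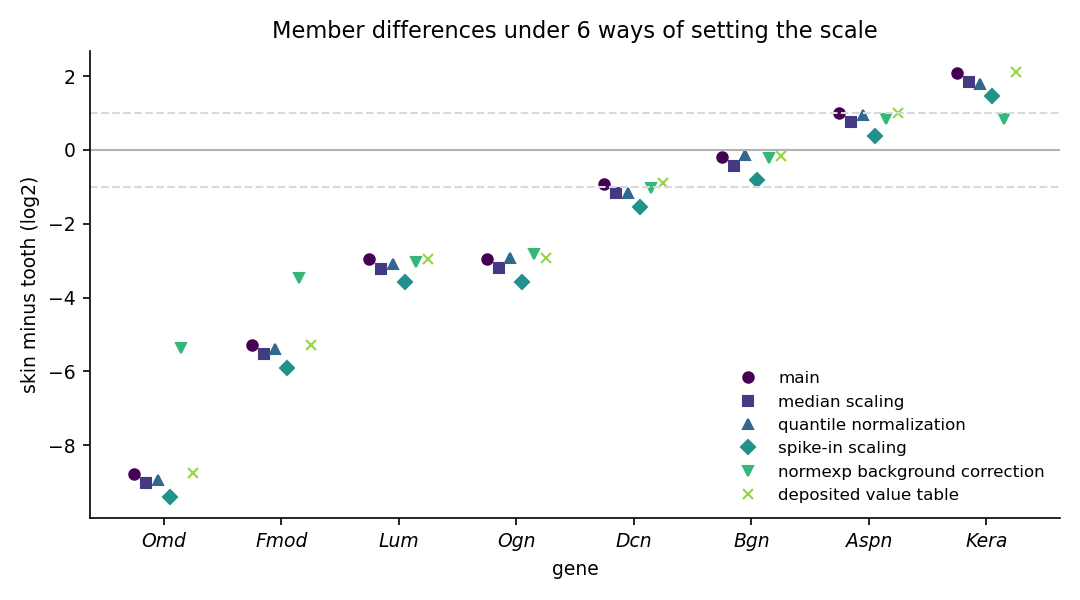
Difference between skin and tooth (log2) of the 8 measured genes under 6 ways of setting the scale, one symbol for each; dashed lines mark 2-fold. Lum and Ogn stay past the 2-fold line under all 6, Fmod and Omd move most under normexp background correction, and no gene crosses 0.

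The other 9 genes of the wider leucine-rich family showed no shared direction. Of 7 measured genes, 1 was at least 2-fold higher in tooth, 2 in skin and 4 lay within 2-fold, with a median of -0.60 (log2). For this list and those that follow, the shares of all detected genes by measured values were 15.5% toward tooth and 14.2% toward skin. Podnl1, a podocan-like gene, was measured only in tooth and at least 20.9-fold higher there. Its relative Podn was 3.68-fold higher in skin, with levels of -2.62 in tooth and -0.74 in skin (log2). Nyx was detected only in the skin, where it was at least 2.45-fold higher, whereas Ecm2, the chromosome 13 neighbour, was measured only in tooth and at least 1.71-fold higher there. Tsku (-0.76), Chadl (-0.60) and Chad (0.00) lay within 2-fold, and Optc and Nepn were measured in neither tissue.

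The enzymes that build the sugar chains were compared in the same way. Of 21 measured genes for the linker, chondroitin and dermatan sulfate, the chains of decorin and biglycan, 7 were at least 2-fold higher in tooth, 1 in skin and 13 lay within 2-fold, with a median of -0.79 (log2). Chst11, a chondroitin 4-O-sulfotransferase, was 5.24-fold higher in tooth, with intensities of 1127 and 139, and Csgalnact1, which starts the chondroitin chain, was 2.39-fold higher in skin. Chst13 was measured only in tooth and at least 5.99-fold higher there by its brighter probe, whereas its other probe differed by 0.92 (log2) toward skin. B4galt7, within 2-fold at -0.87, had a further probe at -1.11. Of 6 measured keratan sulfate genes, 3 were at least 2-fold higher in tooth and none in skin, with a median of -0.62, and of these 3 B4galt1 had a further probe at -0.52. Chst1, which sulfates the galactose of keratan sulfate, the chain of lumican and fibromodulin, had an intensity of 26781 in tooth and 277 in skin, or 62.3-fold higher in tooth. Chst5 had the largest difference toward skin, 0.78, within 2-fold.

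Fibrillar collagens, to which the members bind, were measured for 11 of 11 genes, of which 8 were at least 2-fold higher in tooth, none in skin and 3 lay within 2-fold, with a median of -3.17 (log2). Col11a1 was 41.1-fold higher in tooth, and Col2a1, the collagen of cartilage, was measured only in tooth and at least 43.3-fold higher there. Col5a3 had the largest difference toward skin, 0.53, a value smaller than the shift of -0.62 under spike-in scaling. Among 12 measured proteases and enhancers of matrix processing, 7 were at least 2-fold higher in tooth, 1 in skin and 4 within 2-fold. Their median was -1.53, and of those within 2-fold Bmp1 had a further probe at -1.59. Their action on the members was not tested. Pcolce, the enhancer of procollagen cleavage by BMP1, was 11.2-fold higher in tooth, and Mmp20, the enamel protease, was measured only in tooth and at least 104-fold higher there. Adamts1, which cleaves large proteoglycans, was 3.54-fold higher in skin.

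Markers of bone, dentin and dental mesenchyme were higher in tooth, as the members were on balance, those of muscle and fat were higher in skin, and other lists were mixed. Of 8 osteoblast and odontoblast markers, 7 were at least 2-fold higher in tooth, with a median of -7.70 (log2) and a summed unscaled intensity of 171331 in tooth and 325 in skin. Sp7, Dmp1, Phex and Dspp, of that list, were not well above background in skin, as was the case for Omd. Bglap, Ibsp, Runx2 and Alpl were measured on both arrays. Of 5 dental mesenchyme markers 4 were at least 2-fold higher in tooth, with a median of -5.01. Their unscaled sums were 9890 and 3881, of which Lhx6, within 2-fold at a scaled difference of 0.09, gave 5059 and 3476. Pax9, Lhx8 and Barx1 were not well above background in skin. Of 5 tendon and ligament markers 3 were at least 2-fold higher in tooth and 1 in skin, with a median of -1.66. Their unscaled sums were 6384 and 5036, of which Postn gave 4937 and 4548, although its scaled difference was 0.51, toward skin. Of 8 cartilage markers 3 were at least 2-fold higher in tooth and 1 in skin, with a median over the 6 measured of -0.48. Their unscaled sums were 3708 and 1356, of which Sox9 gave 1408 and 1197, although its scaled difference was 0.40, toward skin. The differences of Postn and Sox9 were smaller in size than the shift of -0.62 under spike-in scaling. Matn1 and Matn3, like Epyc, were measured in neither tissue, whereas Col2a1 and Hapln1 of the same list were measured only in tooth. Of 6 dermal fibroblast markers 3 passed 2-fold toward skin (Dpt, Mfap5 and Dpp4) and 1 toward tooth (Pdgfra), with a median of 1.79. Their unscaled sums were 11509 in tooth and 7228 in skin, of which Cd34 gave 5956 and 2766 and Pdgfra gave 3565 and 427. All these sums add probes whose levels are not comparable, on arrays whose 75th percentiles were 427.9 in tooth and 276.1 in skin. The skin array also held more signal from 6 muscle markers, all at least 2-fold higher there with a median of 3.24 (a further Myh8 probe gave 0.94), and from 5 fat markers, all at least 2-fold higher with a median of 4.07. The part of these cell types in the members' differences was not tested.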

How the data were processed

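Total RNA from 1 tooth and 1 skin sample was labelled with Cy3 and hybridised to Agilent mouse arrays of 62976 spots. The deposited intensities came, per the file headers, from Agilent Feature Extraction 10.7.3.1, in which the authors' processing subtracted background, removed trends within the array and put surrogates in place of 22.8% of the non-control tooth spots and 25.5% of the non-control skin spots. GeneSpring, removal of very dim entities and a percentile shift were named in the methods. A further table deposited by the authors holds ratios on a linear scale, each the processed intensity divided by 430.7 (tooth) or 274.5 (skin), with column medians of 0.0810 and 0.0989. It was not centred on genes and was used as an alternative. The yes-or-no calls for background, saturation and outliers were deposited with the intensities.

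Outlier spots were left out (137 and 146), spots of a probe were averaged as log2 intensity, and each array's 75th percentile over its non-control probes (427.9 and 276.1) was subtracted. Where a gene had several probes, the brightest stood for it. A probe counted as measured where over 50% of its spots were well above background. Otherwise a fold was a bound against the lowest detected signal of that array (-4.52 in tooth, -3.73 in skin, log2 scaled) or the probe's own value if higher. Counts and medians used the dim value as measured. Exceptions were the counts given by measured folds and bounds, in which Tlr4 and Ncan fell under 2-fold. Errors were propagated from the deposited error of each spot and cover the scanner and its error model only. From the scatter of spots, the SD of a difference was 0.12 (log2) for probes well above background with at least 8 spots. Among the members only Kera had several spots, and its SDs among spots were 0.57 in tooth and 0.39 in skin. The number of arrays, 1 per tissue, limits the precision.

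The members, lists and settings were chosen with earlier results of these data known. The text names all members, every gene of the wider family, and from each other list the largest difference and the largest bound in each direction, and it names markers where a list is described. Alternatives were median, quantile and spike-in scaling (8 spike-ins), normexp correction with an offset of 50, the deposited table, other choices of probe, other filters, dim values at their bound and a 4-fold line. The computation was tested on simulated data and used Python 3.11.15, numpy 2.4.6, pandas 2.3.3, matplotlib 3.10.9, R 4.3.3 and limma 3.58.1 (normexp). Probe coordinates are mm9. The exon or intron under a probe was not analysed here.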

Additional observations from a re-analysis of the deposited data

How the results depend on the processing

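The median difference of -1.93 (log2) over the measured members became -2.18 with median scaling, -2.56 with spike-in scaling, and -1.01 without a filter on dim probes and with the lenient call of signal above background, both of which add Epyc and Prelp. The median over all genes moved as well, to -0.29, -0.67, 0.18 and 0.04 in that order, and over all settings the members' median minus this one ranged from -1.96 to -1.04. The count of members at least 2-fold higher in skin, 1, became 0 with normexp correction and 0 over genes measured on both arrays, where Kera is left out, and 2 in the deposited value table, where Aspn reached 1.01, and 2 without a filter and with the lenient call, which add Prelp. The count for tooth, 4, ranged from 3 to 5. It stood at 5 under median, quantile and spike-in scaling and normexp correction, where Dcn passed 2-fold. The share of all genes, 15.5%, was then 20.1%, 16.7%, 32.4% and 9.6% in that order. It also stood at 5 without a filter and with the lenient call, which add Epyc, beside 11.9% and 13.6% of all genes. At a 4-fold line the counts were 4 for tooth and 1 for skin, beside 6.29% and 7.41% of all genes, with Kera counted by its measured value and not its bound. Of 40 values of single members under the scalings, normexp correction and the deposited table, 17 moved by more than the measurement error, and 0 changed sign. The choices of probe and filter cannot move a single member's value. The bounds under other scalings, added after seeing the data, ran from 35.2-fold to 221-fold for Omd and from 1.49-fold to 2.33-fold for Kera. Dim signals limit Omd, Kera, Fmod, Epyc and Prelp, and 1 array per tissue limits all members. No paired analysis was possible because the result comes from no test and there was 1 array per tissue.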

Other observations

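Growth factors and receptors known to bind decorin or biglycan were measured for 14 of 14 genes, of which 5 were at least 2-fold higher in tooth and 1 in skin by measured folds and bounds, with a median of -0.79 (log2). Wisp1, a matricellular protein of the CCN family, had the largest difference toward tooth, with intensities of 4974 in tooth and 245 in skin, or 13.1-fold. Egfr was 3.27-fold higher in skin, with intensities of 915 and 1931. Tlr4, a receptor for soluble biglycan, was measured only in tooth and was at least 1.09-fold higher there, although its measured difference was -1.33 (log2). Kdr differed by 0.43 by its brightest probe and by -2.19 by its other probe.

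The large chondroitin sulfate proteoglycans are a separate family with a different core protein. Of 4 genes, 2 were at least 2-fold higher in tooth and none in skin by measured folds and bounds. Vcan lay within 2-fold at -0.16 (log2) by its brightest probe, and another probe gave -1.52. Bcan was 2.91-fold higher in tooth, with intensities of 974 and 216. Ncan was measured only in skin, and at least 1.82-fold higher there. Among the endothelial markers 2 of 4 were at least 2-fold higher in tooth and none in skin, with Kdr taken by its brightest probe and a median of -0.89 (log2), and among the epithelial markers none of 5 in tooth and 2 in skin, with a median of 0.94.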
